A study of Mus musculus with 16 samples.

Results

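The genes described here are Lif, Lifr, Il6st, Stat3 and Socs3, which carry a cytokine signal from outside the cell to the genome and then switch it off. Every peak overlapping the RefSeq span of 1 of these 5 genes (GRCm38/mm10), extended by 50 kb on each side, was taken from the deposited ATAC-seq peak lists. Peaks of different lists that overlapped by at least 1 bp were merged into regions, which gave 104 regions of 165616 in all. Lif had 20 of them, Lifr 28, Il6st 14, Stat3 19 and Socs3 23.

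ATAC-seq marks open chromatin by the insertion of sequencing adapters with the Tn5 transposase. The samples covered 8 stages with 2 samples each. They were embryonic fibroblasts (MEF) on day 0, cells taken at days 2, 4, 6, 8, 10 and 12 of chemical reprogramming, and induced pluripotent stem cells (iPSC). All came from fibroblasts of 129XOG2 embryos at E13.5, per the labels. The OG2 transgene places GFP under Pou5f1 regulatory sequence and reports pluripotency. The iPSC were grown on feeder cells in medium with 1000 units/mL of mouse LIF, 3 μM CHIR99021 (a GSK3 inhibitor) and 0.2 μM PD0325901 (a MEK inhibitor). The labels do not state what the reprogramming medium held, and so not whether LIF was present at days 2 to 12.

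LIF is a secreted cytokine of the interleukin-6 family. It binds its receptor LIFR, which pairs with the shared signalling chain gp130, the product of Il6st, and JAK kinases bound to the receptors then phosphorylate STAT3. Phosphorylated STAT3 enters the nucleus and holds mouse embryonic stem cells in self-renewal, and it also switches on Socs3, whose protein blocks the receptor complex in a negative feedback. Fibroblasts use the same receptors and STAT3 in responses to inflammatory cytokines.

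Each stage had 1 deposited list, so no spread between samples could be computed, no test between stages was made and every difference is one between single lists. Peak numbers ranged from 31915 in the day 12 list to 83022 in the day 2 list, and depth, read from the lowest background pileup recovered from the peak values, lay between 0.248 (day 12) and 3.08 (day 2). A peak missing from a shallow list need not be absent from the cells, and in these bulk samples fewer open cells cannot be told apart from less signal per cell. Coverage is therefore also given with the 6 deeper lists rescaled to the background pileup of day 8, 0.682; day 12 lies below it and could not be matched. Of the pluripotency marker genes with an annotated start, 7 of 7 had it covered in iPSC and 2 of 7 on day 0, and of the fibroblast markers 3 of 7 in iPSC and 6 of 7 on day 0. The share of feeder cells in the iPSC samples is not given, and its part in the iPSC list was not tested. Starts of 3 of 4 spermatid genes were covered on day 0 and in no other list.

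The sequence before each gene's start is shown because 4 of the 5 starts shown lay inside a peak in every list and that of Lif in none. Lifr has a further annotated start, whose sequence is not shown. The letters are the 250 bases before the annotated start, 5′ to 3′ on the gene's strand, from the RefSeq promoter table of GRCm38.p6, which held all 5 genes. Capitals mark a match to the STAT palindrome TTCNNNGAA or to the AP-1 motif TGANTCA, searched on both strands.
Lif (chr11:4257318-4257567, + strand): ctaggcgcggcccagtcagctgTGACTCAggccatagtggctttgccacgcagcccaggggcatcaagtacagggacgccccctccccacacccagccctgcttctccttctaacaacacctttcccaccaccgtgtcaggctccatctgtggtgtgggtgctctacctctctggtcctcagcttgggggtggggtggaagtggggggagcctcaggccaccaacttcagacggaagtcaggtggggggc
Lifr (chr15:7129322-7129571, + strand): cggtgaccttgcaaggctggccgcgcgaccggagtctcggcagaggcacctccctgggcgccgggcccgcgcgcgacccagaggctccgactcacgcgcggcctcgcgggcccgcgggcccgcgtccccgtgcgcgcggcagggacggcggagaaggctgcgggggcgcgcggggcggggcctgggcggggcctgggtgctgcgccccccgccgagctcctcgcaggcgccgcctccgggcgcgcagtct
Il6st (chr13:112463820-112464069, + strand): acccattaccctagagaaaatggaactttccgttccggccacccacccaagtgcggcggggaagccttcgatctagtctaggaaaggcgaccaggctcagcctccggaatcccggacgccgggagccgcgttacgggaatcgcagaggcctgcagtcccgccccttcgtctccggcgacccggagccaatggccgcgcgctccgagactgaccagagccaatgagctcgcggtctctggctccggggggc
Stat3 (chr11:100939541-100939790, − strand): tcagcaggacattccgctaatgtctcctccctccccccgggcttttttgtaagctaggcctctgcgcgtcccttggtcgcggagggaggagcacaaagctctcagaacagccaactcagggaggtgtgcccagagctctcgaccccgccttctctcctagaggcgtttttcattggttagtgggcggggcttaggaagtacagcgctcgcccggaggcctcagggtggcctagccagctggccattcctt
Socs3 (chr11:117969367-117969616, − strand): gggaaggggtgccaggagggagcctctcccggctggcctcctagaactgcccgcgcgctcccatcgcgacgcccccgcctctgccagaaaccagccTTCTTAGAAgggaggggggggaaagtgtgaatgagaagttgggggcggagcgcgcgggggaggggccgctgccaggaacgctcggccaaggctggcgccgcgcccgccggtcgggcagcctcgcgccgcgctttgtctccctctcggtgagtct
The Socs3 sequence held 1 STAT match, TTCTTAGAA, which began 154 bases before the start and lay inside the Socs3 peak in all 8 lists. Such a match occurred in 6.58% of 21263 sequences of the same length before starts of protein-coding genes. The stricter form TTCCNGGAA, found in 0.95% of them, was in none of the 5. The Lif sequence held 1 AP-1 match, TGACTCA, 228 bases before the start, a motif found in 6.13% of these sequences, and no list had a peak over it. The sequence of Lifr, with 82.4% G and C and 43 CG dinucleotides, held the most CG dinucleotides of the 5 shown, and that of Lif, with 63.6% G and C and 6 CG, the fewest; the median of all such sequences was 55.6% and 10 CG. A match is a description of the letters and does not show that a factor binds there.

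The starts of Il6st, Stat3 and Socs3 and 1 of the 2 annotated starts of Lifr were covered in every list, while the start of Lif was covered in none. A start counted as covered if a peak lay within 1 kb of it. Of 17492 protein-coding genes with an annotated start, 39.6% had it covered in all 8 lists and 31.7% in none, so both patterns were common. In the single lists the share of all genes covered was 56.0% on day 0, 62.3% on day 2, 53.6% on day 4, 55.3% on day 6, 56.8% on day 8, 57.8% on day 10, 46.3% on day 12 and 59.2% in iPSC, against 4 of the 5 genes in each list, with Lifr counted by its covered start. With deeper lists rescaled to day 8, the Lifr start was lost on day 4 and the other calls stayed.

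Across the 104 regions, coverage stood furthest above that of other regions near genes at days 8 and 10. As deposited, 41 regions (39.4%) were covered on day 0, 53 (51.0%) on day 2, 21 (20.2%) on day 4, 43 (41.3%) on day 6, 42 (40.4%) on day 8, 49 (47.1%) on day 10, 21 (20.2%) on day 12 and 33 (31.7%) in iPSC. Of the 129412 regions within 50 kb of any protein-coding gene, 31.4% were covered on day 0, 51.1% on day 2, 25.2% on day 4, 34.9% on day 6, 26.2% on day 8, 28.8% on day 10, 19.5% on day 12 and 32.2% in iPSC. Pooled, the 104 regions thus lay above these regions at days 0, 6, 8 and 10, below them on day 4, and within 1 percentage point of them at days 2 and 12 and in iPSC. Single genes departed from this. Lifr lay below the share near any gene on day 0 (25%), day 6 (28.6%) and day 8 (21.4%). Il6st lay below it on day 6 (28.6%) and day 10 (28.6%), and Lif on day 6 (25%). On day 6 only Stat3 (68.4%) and Socs3 (56.5%) lay above it. On day 4 Stat3 (31.6%) and Il6st (28.6%) lay above it. After rescaling to day 8 the shares at the 5 genes were 28.8% on day 0, 28.8% on day 2, 13.5% on day 4, 26.0% on day 6, 40.4% on day 8, 44.2% on day 10, 20.2% on day 12 and 26.0% in iPSC. Near any gene they were 21.8% on day 0, 31.8% on day 2, 19.9% on day 4, 21.6% on day 6, 26.2% on day 8, 26.3% on day 10, 19.5% on day 12 and 22.5% in iPSC. Days 8 and 10 kept the widest distance, and day 4 had the lowest pooled share at the 5 genes.

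**Figure D1:**
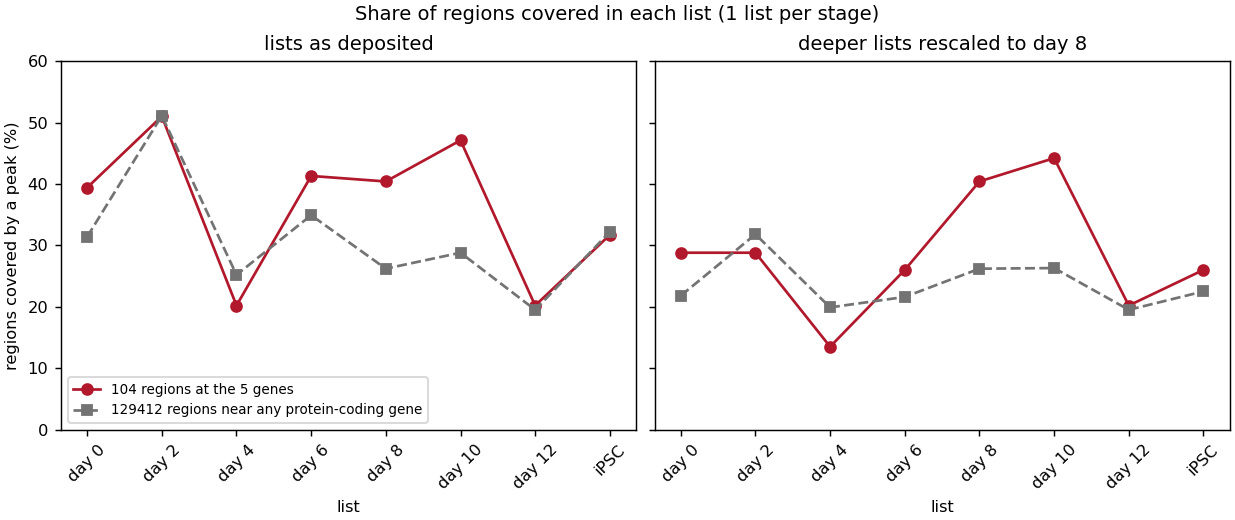
Share of regions covered by a peak in each list, in percent, for the 104 regions at the 5 genes (red circles) and for 129412 regions within 50 kb of any protein-coding gene (grey squares); left, lists as deposited, right, deeper lists rescaled to the background pileup of day 8. Each point is 1 list, so there are no error bars, and the red points at days 8 and 10 lie at 40.4% and 47.1% on the left, above the grey points at 26.2% and 28.8%.

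Set against each other, the end points shared 16 of the 104 regions. There were 17 regions in iPSC and not on day 0 (iPSC-only), 25 on day 0 and not in iPSC (day-0-only), and 46 absent from both end points but present in 1 or more lists of days 2 to 12 (intermediate-only). As shares these were 16.3% iPSC-only (exact Clopper-Pearson 95% interval 9.82 to 24.9, counting error only), 24.0% day-0-only (16.2 to 33.4), 15.4% shared (9.06 to 23.8) and 44.2% intermediate-only (34.5 to 54.3). Regions near any gene had 19.8%, 19.1%, 12.4% and 48.8% in these classes, and each of these values lies inside the interval of the 5 genes. After rescaling, 18 of 89 regions were iPSC-only, 21 day-0-only, 9 shared and 41 intermediate-only, beside 18.3%, 17.3%, 12.5% and 51.8% near any gene. In 38 of the 104 regions (36.5%, interval 27.3 to 46.6) only 1 list had a peak, against 49.9% near any gene, which lies outside that interval. Covered in all 8 lists were 8 (7.69%, 3.38 to 14.6), against 6.80%. The intervals treat regions as independent draws, which neighbours in the same window need not be. After rescaling, 4 of 89 (4.49%) were covered in all 8 lists, against 8.07%.

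**Figure D2:**
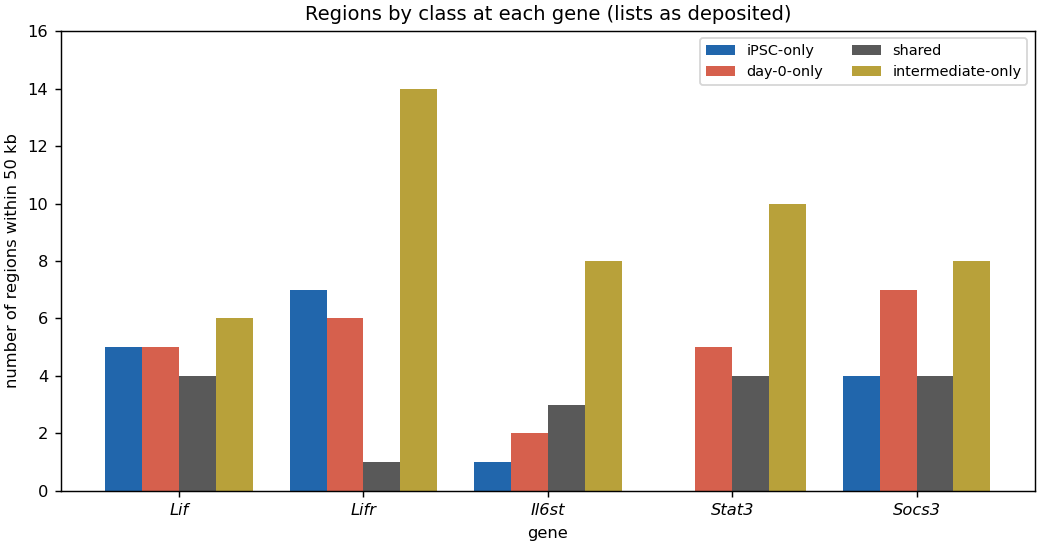
Number of regions within 50 kb of each gene by class, from the lists as deposited: iPSC-only, day-0-only, shared by both, and intermediate-only. Stat3 had 0 iPSC-only regions and 5 day-0-only regions, Lifr had 7 and 6, and its 14 intermediate-only regions were the most of any of the 5 genes.

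The 5 genes differed in how their regions fell between the end points. Lifr had 7 iPSC-only and 6 day-0-only regions, Lif 5 of each, Il6st 1 and 2, Socs3 4 and 7, and Stat3 0 and 5. Of all 21887 protein-coding genes, 41.1% had more iPSC-only regions in such a window and 31.6% more day-0-only regions. Regions lay densest at Socs3, with 22.1 per 100 kb of window, and at Lif, with 17.4, against a median of 8.99 over all genes; 99.8% of genes had a lower density than Socs3 and 96.6% a lower one than Lif. Lifr (13.5), Stat3 (12.4) and Il6st (9.80) lay nearer to that median. Only 28 of the 104 regions overlapped the named gene itself, and 34 overlapped another gene, so a region in a window need not act on the named gene.

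A set of regions open from day 8 onwards stood out at Lif, Lifr and Socs3. A peak in all 4 lists from day 8 to iPSC, and none before day 8, was found in 5 of the 104 regions (4.81%), against 0.535% of regions near any gene. After rescaling to day 8 these were 5 of 89 (5.62%), against 0.960%. A looser rule, iPSC and at least 1 of days 8 to 12 but none of days 0 to 6, took in 6 regions (5.77%, against 3.05%), of which 2 were at each of these 3 genes, and Il6st and Stat3 had 0. Of all protein-coding genes, 29.6% had at least 1 such region in the window and 7.87% at least 2. After rescaling the looser rule took in 8 of 89 regions (8.99%, against 4.29%), 3 at Lif, 2 at Lifr, 2 at Socs3 and 1 at Stat3. The reverse, day 0 and at least 1 of days 2 to 6 but nothing later, held for 12 regions (11.5%, against 9.67%) as deposited and for 6 of 89 (6.74%, against 7.87%) after rescaling. The combination of 8 lists was looked at after the values were seen.

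Lif, the ligand, had its strongest late region 11.2 kb beyond its 3′ end, at chr11:4283673-4284108. The authors' fold enrichment there, the summit pileup over the local background, was 10.8 on day 8, 9.48 on day 10, 6.39 on day 12 and 10.3 in iPSC. Folds of different lists are not on a common scale, since the lists differ in depth, and serve only to describe a peak within its own list; the iPSC peak outscored 95.5% of the peaks of its list. The summits of the 4 lists lay within 29 bp of each other, and no list of days 0 to 6 had a peak there. Inside Lif, the best-scored intermediate-only region, chr11:4258689-4259209, began 1121 bp after the start. Its fold was 3.02 on day 2, 5.63 on day 8, 8.06 on day 10 and 4.08 on day 12, and neither end point had it; the day 2 peak was lost after rescaling. With a 2.5 kb window in place of 1 kb, this region made the start of Lif count as covered at days 2, 8, 10 and 12.

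Other regions of Lif belonged to, or scored best in, the early lists. The best-scored day-0-only region, 26.7 kb beyond the 3′ end at chr11:4299244-4300005, had a fold of 5.06 on day 0 and 2.98 on day 2 and overlapped the lncRNA gene Gm11958. A region 35.7 kb beyond the 3′ end, chr11:4308195-4309941, was covered in every list but day 12. Its score outranked 83.5%, 85.7%, 85.3% and 93.3% of the peaks at days 0, 2, 4 and 6, and 19.7%, 4.26% and 36.9% on day 8, on day 10 and in iPSC. Its summits spread over 466 bp, so the lists need not hold the same site, and ranks from lists of different length do not measure a change. The region of the Lif window covered in all 8 lists lay at the start of Castor1, a sensor of arginine in the mTORC1 pathway (chr11:4217899-4218951), and not at Lif.

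Lifr, the specific receptor chain, had neighbouring regions that were covered in either the early or the late lists. At chr15:7092169-7092922 and chr15:7099613-7100650, inside the upstream part of the gene span, peaks were present at days 0, 2, 4 and 6 and in no later list. The fold at the first was 7.27 on day 0, 13.1 on day 2, 5.30 on day 4 and 8.28 on day 6, and at the second it was 6.87, 8.43, 7.76 and 6.83. Both kept all 4 of these lists after rescaling to day 8. Just upstream, chr15:7081721-7082396 and chr15:7088998-7090589 were covered in iPSC and the 3 lists of days 8 to 12, and in no earlier list. The fold at the first was 8.96 on day 8, 8.81 on day 10, 6.58 on day 12 and 7.70 in iPSC. At the second it was 5.24, 5.28, 6.65 and 4.37 in the same lists.

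The second of these late regions ended 21 bp before the first base of the Lifr span, position 7090610, which is the outermost end of the RefSeq models on the start side. It was named after its values were seen. The promoter table gives no start there, and puts the starts of Lifr at positions 7129572 and 7140542. The start at 7129572 lay in a region covered in all 8 lists (chr15:7128400-7130985), with folds of 4.22 on day 0, 4.97 on day 2, 3.43 on day 4, 4.74 on day 6, 6.11 on day 8, 4.87 on day 10, 6.01 on day 12 and 4.35 in iPSC. It ranked lowest in its list on day 4, above 17.8% of peaks, and highest on day 8, above 67.4%. The start at 7140542 had no peak nearer than 3782 bp in any list.

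Lifr also held regions seen in iPSC alone. Of its 7 iPSC-only regions, 5 had a peak in no other list, and 3 of these lay inside the gene span. The best-scored of the 5, chr15:7167468-7168379 inside the gene, had a fold of 8.55 and outscored 90.8% of the iPSC peaks, and chr15:7115311-7117283, also inside, had a fold of 4.90 and outscored 82.2%. A different set was seen at days 10 and 12 alone, 23.6 to 46.9 kb upstream of the span and in no gene: chr15:7043545-7043759, chr15:7048810-7049255 and chr15:7066257-7066990. The second of them had a fold of 5.88 on day 10 and 12 on day 12, where it outscored 95% of peaks, and neither end point had it. Within the gene, chr15:7154579-7155066 was covered at days 8, 10 and 12, with folds of 5.66, 9.24 and 4.31, and in no other list.

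**Figure D3:**
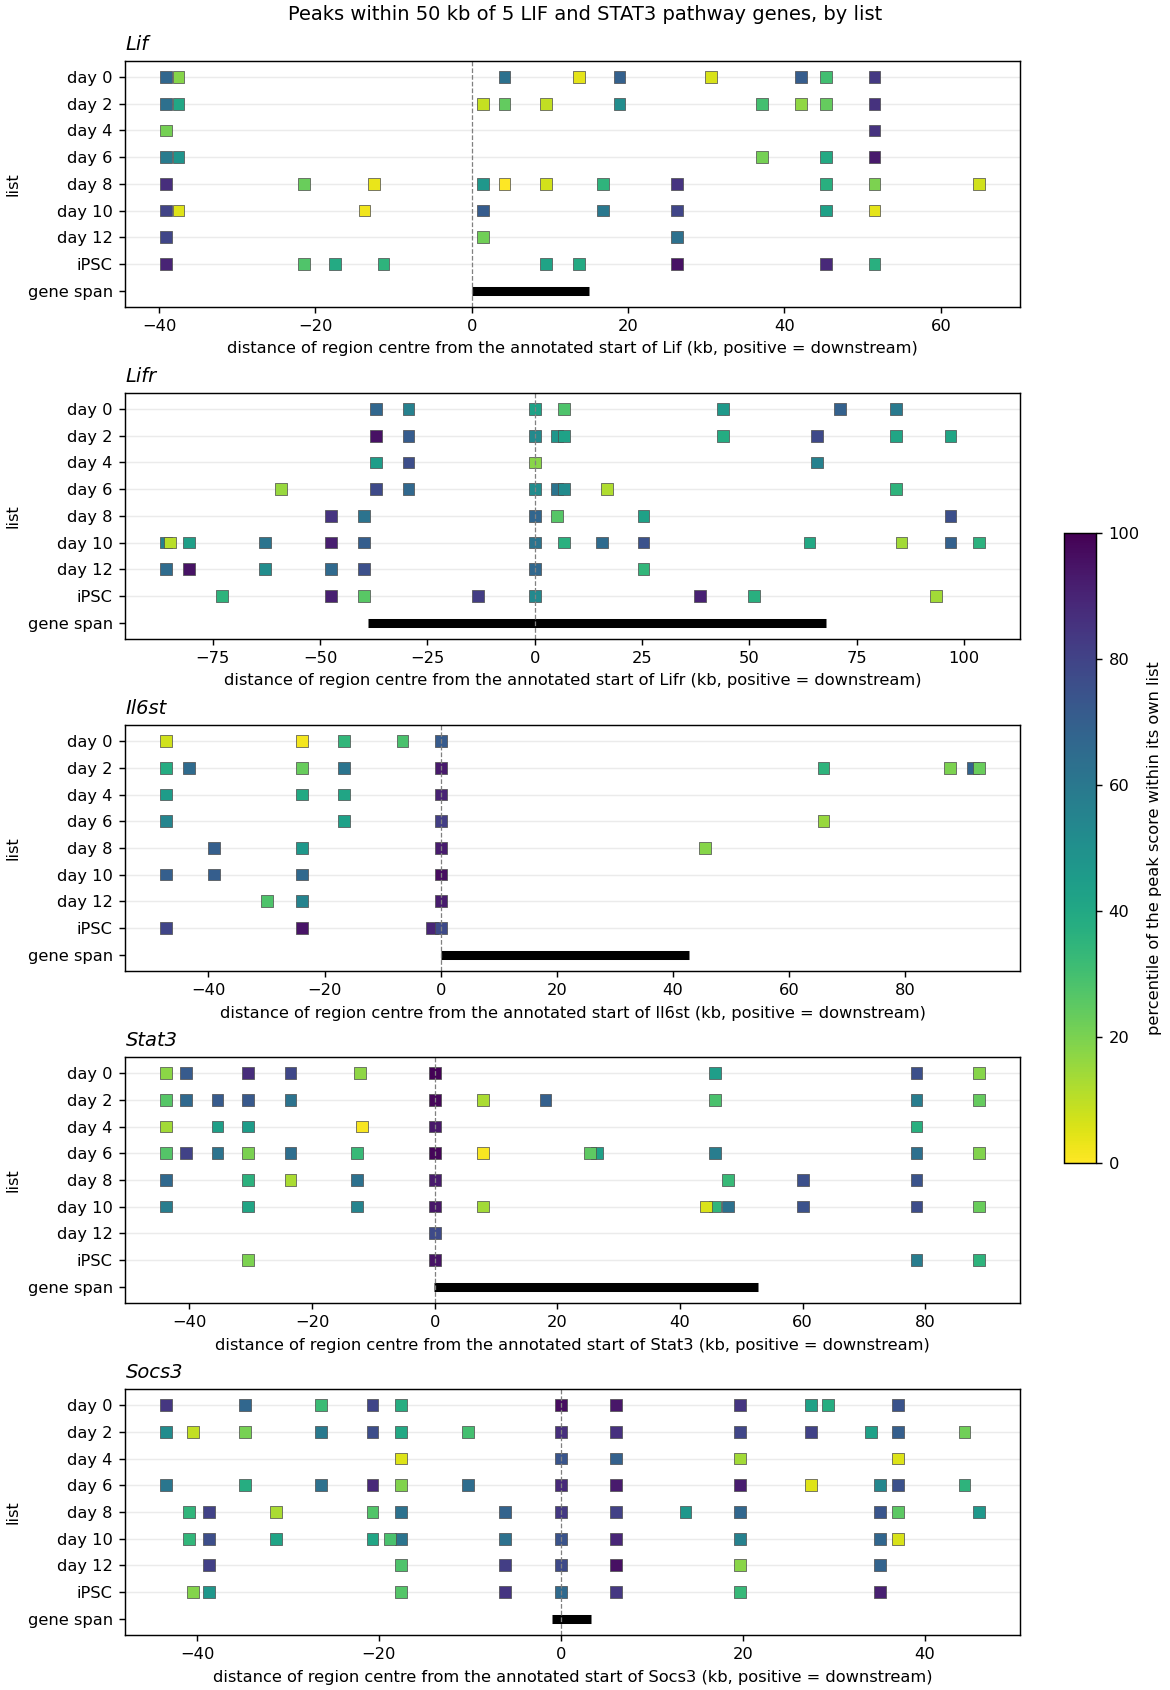
Position of the 104 regions at each gene: the horizontal axis is the distance of a region's centre from the annotated start in kb, the vertical axis the list from day 0 (top) to iPSC (bottom), the colour the percentile of the peak's score within its own list, and the black bar the gene span. At Lifr a pair of squares of days 0 to 6 inside the outer part of the span stands beside a pair of days 8 to iPSC just upstream; at Stat3 the start carries the single square of day 12.

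Il6st, which encodes the gp130 chain shared by the cytokines of the family, had an open start throughout and no region in the rest of the gene. The start region, chr13:112463363-112464924, had a fold of 5.46 on day 0, 8.83 on day 2, 8.63 on day 4, 6.85 on day 6, 10.3 on day 8, 10.4 on day 10, 9.27 on day 12 and 4.92 in iPSC. It outscored between 71.6% (day 0) and 96.7% (day 10) of the peaks of its list and kept all 8 lists after rescaling. The 1 iPSC-only region as deposited, chr13:112462265-112462844, lay 1.23 kb upstream of the gene and outscored 89.5% of iPSC peaks with a fold of 6.22.

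Further upstream of Il6st, 23.2 kb away at chr13:112439335-112440917, a peak was present in every list but day 6. It outscored 1.63% of peaks on day 0, 23.4% on day 2, 39.7% on day 4, 46.6% on day 8, 66.4% on day 10, 55.2% on day 12 and 94.6% in iPSC, with a fold of 8.05 in iPSC and 3.10 on day 0. After rescaling it was covered on day 4, day 8, day 10, day 12 and in iPSC, and so became iPSC-only. The best-scored day-0-only region, chr13:112447012-112447703, 16.4 kb upstream, was covered at days 0, 2, 4 and 6 with folds of 4.78, 7.22, 5.38 and 5.09 and in no later list. Rescaling removed it on day 0 and left it at days 2, 4 and 6. The 1 iPSC-only and 2 day-0-only regions of Il6st became 3 and 1 after rescaling. The best-scored intermediate-only region, chr13:112424604-112425268, was covered at days 8 and 10 alone, with folds of 8.40 and 7.95.

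Stat3, the transcription factor at the end of the signal, had a start that ranked high in each list and fewer covered regions around it in iPSC than on day 0. The start region, chr11:100938835-100940123, had a fold of 9.75 on day 0, 9.89 on day 2, 7.79 on day 4, 8.94 on day 6, 9.84 on day 8, 8.65 on day 10, 7.42 on day 12 and 8.91 in iPSC. It outscored 95.1% of the iPSC peaks and 99.6% of those on day 0, with its lowest rank on day 12, 77.4%. The lncRNA gene Gm46295 overlaps this start, and ATAC-seq peaks do not tell the pair apart. Of the 19 regions of the Stat3 window, 4 were covered in iPSC and 9 on day 0, and 0 were iPSC-only. After rescaling these were 3 and 6, with 1 iPSC-only region. As deposited, the 4 regions covered in iPSC all lay at gene starts, those of Stat3, Stat5a, Stat5b and Cavin1. Day 12 covered only the Stat3 start, but that list is also the shallowest.

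Between these end points the Stat3 window had 11 covered regions on day 2, 13 on day 6, 8 on day 8 and 11 on day 10. After rescaling these were 7 on day 2, 7 on day 6, 8 on day 8 and 11 on day 10. Of its 10 intermediate-only regions the best-scored, chr11:100879093-100879751, lay in Stat5a, 7.05 kb beyond the 3′ end of Stat3, with folds of 9.29 on day 8 and 8.97 on day 10. Inside Stat3, chr11:100891463-100892029 had the same pair of lists, with folds of 4.68 and 6.38. The best-scored day-0-only region, chr11:100979809-100980545, 40.2 kb upstream, had folds of 6.65 on day 0, 6.40 on day 2 and 6.96 on day 6. As deposited, no Stat3 region that was absent on day 0 had a peak in iPSC, whereas Lif had 5 such regions, Lifr 7, Il6st 1 and Socs3 4; the difference between the genes was not tested.

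Socs3, the feedback inhibitor and a direct STAT3 target, had the densest window and 4 regions covered in all 8 lists, 1 of them at its own start. The start region, chr11:117968543-117970141, which holds the STAT match TTCTTAGAA printed above, had a fold of 7.0 on day 0, 5.76 on day 2, 4.77 on day 4, 5.08 on day 6, 5.84 on day 8, 4.69 on day 10, 7.19 on day 12 and 4.27 in iPSC. It outscored 66.0% of peaks in iPSC and 96.7% on day 0. A second region, chr11:117962267-117964205, lay 1.87 kb beyond the 3′ end and outscored between 69.5% (day 4) and 95.9% (day 12) of the peaks of its list, with folds of 6.01 in iPSC and 6.54 on day 0. Both kept all 8 lists after rescaling. The others, at chr11:117949099-117950148 and at chr11:117986557-117987430, lost lists after rescaling, among them iPSC. The latter lay at the start of the neighbouring gene Pgs1.

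The late regions of Socs3 lay upstream. At chr11:117974430-117976585, 4.09 kb from the gene, the fold was 4.91 on day 8, 4.09 on day 10, 8.01 on day 12 and 6.08 in iPSC, and the peak outscored 84.5% of iPSC peaks. Its summits spread over 1068 bp, so the lists need not hold the same site. At chr11:118007473-118008583, 37.1 kb upstream and inside Pgs1, the fold was 6.81, 6.05, 8.31 and 4.30 in the same lists. Here the summits spread over 476 bp, so the same limit holds. The best-scored iPSC-only region, chr11:117934066-117934537, lay 31.5 kb beyond the 3′ end and had a peak from day 6 on, with folds of 3.85 on day 6, 6.35 on day 8, 5.66 on day 10, 6.72 on day 12 and 7.72 in iPSC and summits within 33 bp. Set against these, 7 regions were day-0-only. The best-scored of them, chr11:117989771-117990420, also inside Pgs1, was covered at days 0, 2, 6, 8 and 10, with folds of 5.80, 5.28, 5.90, 3.98 and 4.19.

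As deposited, regions seen only between the end points fell more often in the later days at Lif, Lifr and Socs3, and not at Il6st and Stat3. After rescaling, those of Stat3 did so too. Of the 46 intermediate-only regions, 24 (52.2%) were covered only at days 8 to 12, against 40.1% of such regions near any gene, and 17 (37.0%) only at days 2 to 6, against 53.3%. Both day 8 and day 10 covered 10 of them (21.7%), against 9.99%. Lifr had 9 of days 8 to 12 only and 3 of days 2 to 6 only, Lif 4 and 1, and Socs3 5 and 3, whereas Il6st and Stat3 each had 3 and 5. After rescaling, 27 of 41 (65.9%) were of days 8 to 12 only, against 56.5%, and 10 (24.4%) of days 2 to 6 only, against 36.2%; Stat3 then had 6 and 3, and Il6st 3 of each.

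Among 36 other genes of the pathway, 16 had more iPSC-only regions and 17 more day-0-only regions, beside the 41.1% and 31.6% of all genes given above. After rescaling these were 14 and 14, beside 38.2% and 29.3% of all genes. These genes were listed by role with earlier results of these data known, and no test of the lists or of a difference between roles was made.

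The 11 genes known as targets of LIF and STAT3 in pluripotent cells held 60 iPSC-only and 31 day-0-only regions. Of the 129412 regions near any gene, 25607 (19.8%) were iPSC-only and 24688 (19.1%) day-0-only. Only the balance between the 2 classes can be compared with these counts. More were iPSC-only at 8 of the 11 as deposited and at 7 after rescaling, beside 41.1% and 38.2% of all genes. Klf5, a Krüppel-like factor of the pluripotency network, had 11 iPSC-only and 2 day-0-only regions, and 5 and 0 after rescaling. Tfcp2l1, a factor that LIF induces in embryonic stem cells, had 8 and 2, and 7 and 1 after rescaling. Sall4, a zinc finger factor of the same network, had 7 and 1, and 4 and 1 after rescaling. The 2 target genes with more day-0-only regions were Klf4, a reprogramming factor, with 3 and 4, and 2 and 3 after rescaling, and Pim1, a kinase gene that STAT factors induce, with 1 and 4, and 1 of each after rescaling.

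The 3 JAK kinases and the adaptor phosphatase Ptpn11 had 5 iPSC-only and 21 day-0-only regions in all, of which Jak1 alone gave 1 and 10. Near any gene, 19.8% of regions were iPSC-only and 19.1% day-0-only. Of the 4 genes, 3 had more day-0-only regions as deposited (Jak1, Jak2 and Ptpn11), beside 31.6% of all genes. After rescaling the number was again 3, but with Tyk2 in place of Ptpn11, beside 29.3% of all genes. Jak1, which binds gp130 and LIFR, had 0 and 9 after rescaling. As deposited, 7 of its 21 regions were covered on day 0 and in at least 1 of days 2 to 6 and not later. Near any gene, 9.67% of regions had that pattern. Jak2 had 2 and 6, and 3 and 5 after rescaling. Tyk2 had 2 of each, but 1 and 4 after rescaling. Ptpn11 had 0 and 3, but 1 and 0 after rescaling. Of the 7 cytokine genes 6 had more day-0-only regions (5 after rescaling), beside 31.6% of all genes (29.3% after rescaling). Among them was Ctf1 with 0 iPSC-only and 3 day-0-only. Il11, with 4 and 2, was the exception and had 1 and 2 after rescaling. Osm, whose window overlaps that of Lif, had 5 and 6, but 5 and 2 after rescaling.

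The receptors, STAT factors and inhibitors were split. Il27ra had 5 iPSC-only and 2 day-0-only regions, and 2 of each after rescaling. Osmr, the receptor of oncostatin M, had 1 and 3, but 3 and 2 after rescaling. Stat2 had 5 and 1, but 1 and 2 after rescaling. Stat5b had 2 and 5, and 2 and 3 after rescaling. Stat5a had 0 and 1, and 1 of each after rescaling. The windows of Stat5a and Stat5b overlap that of Stat3, so regions of the Stat3 window are counted again there. Among the inhibitors Ptpn2 had 4 and 1 and Socs1 2 and 5, and after rescaling 3 and 1 and 1 and 4. Of the 5 day-0-only regions of Socs1, 2 lay within 1 kb of the spermatid genes Prm1 and Prm2, whose starts were covered on day 0 alone; their part in the Socs1 count was not tested.

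**Figure D4:**
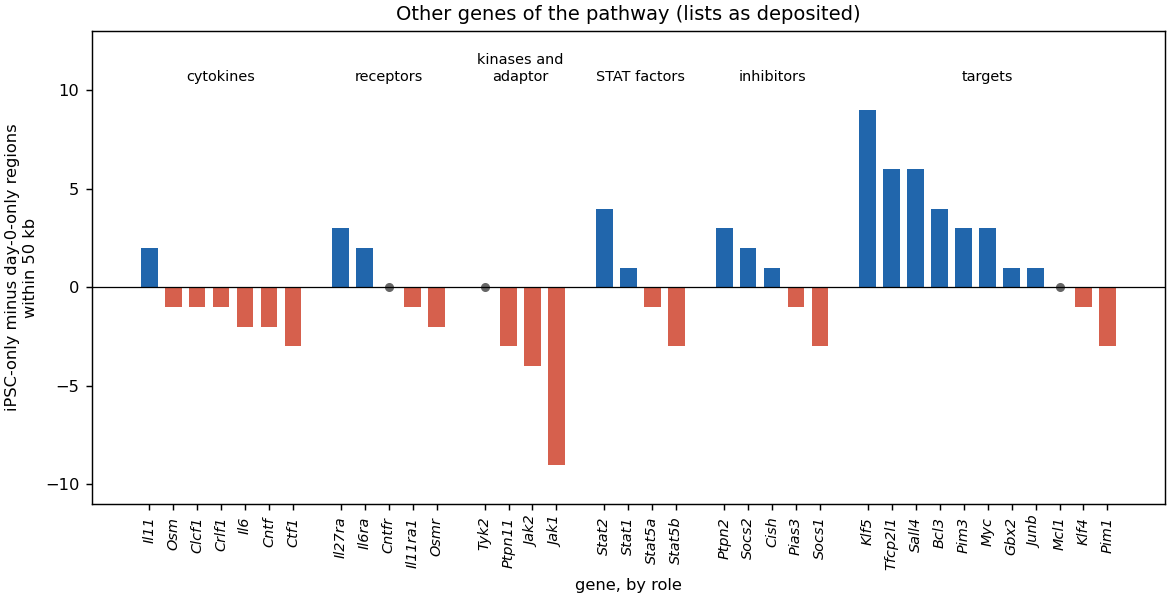
Number of iPSC-only minus day-0-only regions within 50 kb of each of 36 other pathway genes, grouped by role, from the lists as deposited. Values above 0 mean more regions in iPSC than on day 0: Klf5 stands highest at 9 and Jak1 lowest at -9.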

How the data were processed

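ATAC-seq peaks were deposited as 1 list for each of 8 stages, while the labels give 2 samples a stage; neither how the authors combined the samples nor the Tn5 shift and settings are given in the sources used here. The submitters' processing notes name fastp 0.20.1, Bowtie2 2.2.5, SAMtools, MACS2 2.1.2, deepTools 3.4.3 and mm10. The deposited column of q-values was not used directly, although the score of a peak may be derived from it. Each deposited peak carries a score, a fold enrichment (a ratio) at the summit, and the −log10 of its p-value. All were computed by the authors and used here only to describe peaks within a list.

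From these, summit pileup and local background were recovered by inverting the fold and the Poisson p-value, matched within 0.001 of −log10 p, and tested on simulated data. Lists deeper than day 8 were rescaled to its lowest background and kept peaks passing the weakest −log10 p of day 8; day 12 was shallower and left as it was. Peaks on chromosomes 1 to 19, X and Y were merged at 1 bp overlap (Python 3.11.15, pandas 2.3.3, SciPy 1.17.1). Gene spans and starts came from RefSeq GRCm38.p6, and exons were not used here. The 5 genes and all lists were chosen with earlier results of these data known. Named regions were those within 1 kb of a start, in all 8 lists, or best scored per gene and class; named pathway genes had the largest differences of their role. The late regions outside that rule, the Lifr regions of days 0 to 6, of days 8 to 12 and of iPSC alone, chr11:4308195-4309941, chr13:112439335-112440917, chr11:100891463-100892029 and the genes Klf4, Tyk2, Ptpn11 and Osm were picked after their values were seen.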

Additional observations from a re-analysis of the deposited data

How the results depend on the processing

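The counts at the 5 genes were lower with a narrower window and with a score limit, since both leave fewer peaks to count. As deposited, 17 regions were iPSC-only, 25 day-0-only, 16 shared and 46 intermediate-only. With 10 kb on each side these were 8, 9, 6 and 17, and with the better-scored 50% of each list 11, 16, 6 and 28. The order of the classes by size was the same in both settings as in the main one. Shared regions numbered 8 where a peak had to cover 50% of the region, 8 with lists of equal length and 9 at the day 8 background. Il6st had 1 iPSC-only region fewer than day-0-only (-1), but the difference was 1 with 50% of the region covered, 3 with the better-scored peaks, 3 with equal lengths and 2 at the day 8 background. For Socs3 it was -3, and 1 with the 10 kb window. The number of genes with a covered start stayed within 1.5 times of 4 in every list and setting. Leaving out the day 12 list, an alternative added after the data were seen, gave 45 intermediate-only regions, and leaving out day 2 gave 40. The cause of the other shifts was not tested. No paired analysis was possible because each stage has 1 list in which the 2 samples are not kept apart, and the replicate-blocked alternative was not run. Depth limits absence: a region missing at day 12, the shallowest list, may lie below detection.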
